A study of Mus musculus with 4 samples.

Results

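The genes of the chemokine system were taken as all probe sets whose gene symbol begins with Ccl, Cxcl, Ccr, Cxcr or Ackr and a digit, together with Cx3cl1, Cx3cr1, Xcl1 and Xcr1. This rule, which uses names and no measured value, found 56 of the 23185 named probe sets, out of 25206 on the array. They comprise 34 ligands, 18 signalling receptors and 4 atypical receptors. Every probe set stands for 1 Entrez gene.

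Chemokines are small secreted proteins that draw leukocytes along a gradient and hold them in tissue, and their receptors are helix-bundle membrane proteins, most of which signal through inhibitory G proteins. The names CC, CXC, CX3C and XC describe how the first cysteines of the ligand are spaced. A small set of atypical receptors binds chemokines without G protein signalling and mostly removes or transports them. Airway smooth muscle is known to make several chemokines, among them Ccl11 and the neutrophil attractants of the CXC family, under inflammatory stimuli, and so can recruit eosinophils, neutrophils and mast cells to the airway wall.

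The cells were sorted from lungs of adult mice that carried 2 reporter transgenes in every group, hrGFP under the Acta2 promoter and DsRED under the Cspg4 promoter, and the green, not red, cells were kept as airway smooth muscle. VAD mice ate a vitamin A-deficient diet with under 0.1 IU of vitamin per gram, for 3 days in one statement of the labels and 5 days in another. VAS mice ate the routine sufficient diet with 15 IU per gram. BMS mice ate a powdered sufficient diet mixed with BMS, which blocks every type of retinoic acid receptor, at 5 mcg per gram for 3 days, and CTR mice ate the same powdered diet with the corn oil vehicle. Total RNA of 3 mice was pooled for each group and run on 1 array, so there are 4 arrays and no replicates. Differences therefore compare arrays, the spread between mice is unknown, and "higher" and "lower" describe these arrays. All levels and differences below are on the log2 scale of the deposited RMA values, where a difference of 1 is 2-fold. Reporter promoters mark cells by 1 gene each, so other cells that use Acta2 and not Cspg4 could enter the sort.

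Acta2 stood between 11.95 and 12.12 and the smooth muscle myosin gene Myh11 between 11.18 and 11.56 on the 4 arrays, all far above the upper quartile of the arrays, which lay between 7.61 and 7.63. Of 8 smooth muscle markers, none was 1.5-fold apart in any comparison. All 8 were nevertheless higher in VAD than in VAS (median 0.26), where 48.3% of all named probe sets were. All 8 were lower in BMS than in CTR (median -0.16), where 50.8% of all named probe sets were. Markers of other cells were also measurable. Cspg4, whose promoter drove the reporter of the excluded cells, lay between 7.71 and 8.22, above the upper quartile of every array. Pericyte markers, Cspg4 among them, had medians from 9.12 to 9.83 per array. Fibroblast markers had medians from 9.69 to 10.76 per array, while 10 of 11 lymphocyte markers and 7 of 13 macrophage markers lay below the median of all probe sets. In pooled bulk RNA, fewer cells of a type and less RNA per cell cannot be told apart.

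The promoters of 8 members are printed: the 4 atypical receptors, which all differed in BMS, 3 ligands of Cxcr2 from 1 gene cluster, and Cxcl10, which differed in VAD. The set was chosen after values were seen. Of the 56 members, 42 matched the RefSeq promoter table (build GRCm38.p6) by gene number, with 44 start sites. Each sequence runs 5′ to 3′ up to the base before the annotated start. In the 4 atypical receptor promoters, capitals mark matches to the loose kappa B motif GGNNTTTCC or to the retinoid receptor core motifs AGGTCA and GGGTCA, on either strand.
Ackr4 (chr9:104126644-104126893, minus strand): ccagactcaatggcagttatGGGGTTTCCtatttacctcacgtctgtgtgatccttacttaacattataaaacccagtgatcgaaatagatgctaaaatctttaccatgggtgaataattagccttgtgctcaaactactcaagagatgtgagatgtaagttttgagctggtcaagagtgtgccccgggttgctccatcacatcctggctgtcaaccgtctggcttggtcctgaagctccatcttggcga
Ackr2 (chr9:121898105-121898354, plus strand): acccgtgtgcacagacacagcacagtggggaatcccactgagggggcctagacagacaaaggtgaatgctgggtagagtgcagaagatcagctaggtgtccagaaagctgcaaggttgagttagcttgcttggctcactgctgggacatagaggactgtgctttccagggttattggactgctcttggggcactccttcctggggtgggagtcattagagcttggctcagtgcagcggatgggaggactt
Ackr3 (chr1:90203730-90203979, plus strand): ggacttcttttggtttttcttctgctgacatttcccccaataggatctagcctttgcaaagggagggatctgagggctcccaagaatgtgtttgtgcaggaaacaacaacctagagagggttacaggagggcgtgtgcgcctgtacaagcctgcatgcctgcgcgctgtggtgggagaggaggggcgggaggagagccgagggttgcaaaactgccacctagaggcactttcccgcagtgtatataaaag
Ackr1 (chr1:173333504-173333753, minus strand): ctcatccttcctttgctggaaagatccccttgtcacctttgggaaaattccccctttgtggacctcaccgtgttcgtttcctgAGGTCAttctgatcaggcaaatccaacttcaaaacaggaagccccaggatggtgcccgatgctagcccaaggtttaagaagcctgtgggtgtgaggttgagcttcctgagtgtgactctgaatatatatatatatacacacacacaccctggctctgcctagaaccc

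In the 3 neutrophil attractant promoters, whose genes lie in 1 row on chromosome 5 with Cxcl15, capitals mark the tight kappa B motif GGAATTTCC, a case of the loose motif above.
Cxcl1 (chr5:90891125-90891244, plus strand): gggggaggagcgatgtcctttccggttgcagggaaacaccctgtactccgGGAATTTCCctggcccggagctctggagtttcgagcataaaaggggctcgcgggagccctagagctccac
Cxcl2 (chr5:90903779-90903898, plus strand): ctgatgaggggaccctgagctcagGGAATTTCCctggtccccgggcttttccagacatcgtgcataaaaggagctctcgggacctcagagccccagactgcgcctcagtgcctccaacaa
Cxcl3 (chr5:90785981-90786100, plus strand): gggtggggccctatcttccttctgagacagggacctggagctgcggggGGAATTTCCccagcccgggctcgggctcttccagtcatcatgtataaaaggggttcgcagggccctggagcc
For Cxcl10, capitals mark matches to GGNNTTTCC and to GAAANNGAA, the core of the interferon-stimulated element. This promoter also matched the retinoid core GGGTCA and TGACTCA, an AP-1 site, which are left in lower case here.
Cxcl10 (chr5:92348890-92349139, minus strand): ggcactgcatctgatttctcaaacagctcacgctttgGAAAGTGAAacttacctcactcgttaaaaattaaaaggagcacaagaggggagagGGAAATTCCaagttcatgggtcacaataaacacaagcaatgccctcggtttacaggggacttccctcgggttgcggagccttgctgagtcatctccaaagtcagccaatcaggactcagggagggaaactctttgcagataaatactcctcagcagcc

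The tight motif GGAATTTCC was found in the 250 bases before the start in 5 of the 44 member promoters (11.4%), those of Cxcl1, Cxcl2, Cxcl3, Cxcl10 and Ccr3, against 0.286% of all 32851 promoters in the table. It began 70, 96 and 72 bases before the start in Cxcl1, Cxcl2 and Cxcl3, and 158 bases before it, on the other strand, in Cxcl10. The loose form GGNNTTTCC was in 9 of 44 (20.5%), against 4.93% of all promoters, and Ackr4 was the one atypical receptor with it. The interferon motif GAAANNGAA was in 8 of 44 (18.2%), against 7.13% of all, and began 213 bases before the start in Cxcl10. The retinoid core AGGTCA was in 12 of 44 (27.3%), against 14% of all, with Ackr1 the one atypical receptor among them, and GGGTCA in 4 of 44 (9.09%), against 11.6%. The other motifs searched were TTCNNNGAA, a gamma-activated site (4 of 44, against 7.02%), TGACTCA, an AP-1 site (3 of 44, against 4.46%), and TTGCGCAAT, a C/EBP site (0 of 44, against 0.0487%). In all, 8 motifs were searched on both strands, and a promoter with GGAATTTCC also counts for GGNNTTTCC. These matches describe letters, and do not show that a factor binds.

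Ligand probe sets ran from the bottom to the very top of the arrays, while signalling receptors were mostly dim. By mean level over the 4 arrays, 10 of 34 ligands and 2 of 22 receptors lay above the upper quartile of all named probe sets, and 7 ligands lay in the top 10%. Below the median lay 15 ligands and 14 receptors. A probe set's brightness also depends on its probes, so this order is no order of transcript abundance, and detection above background was not measured here.

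**Figure D1:**
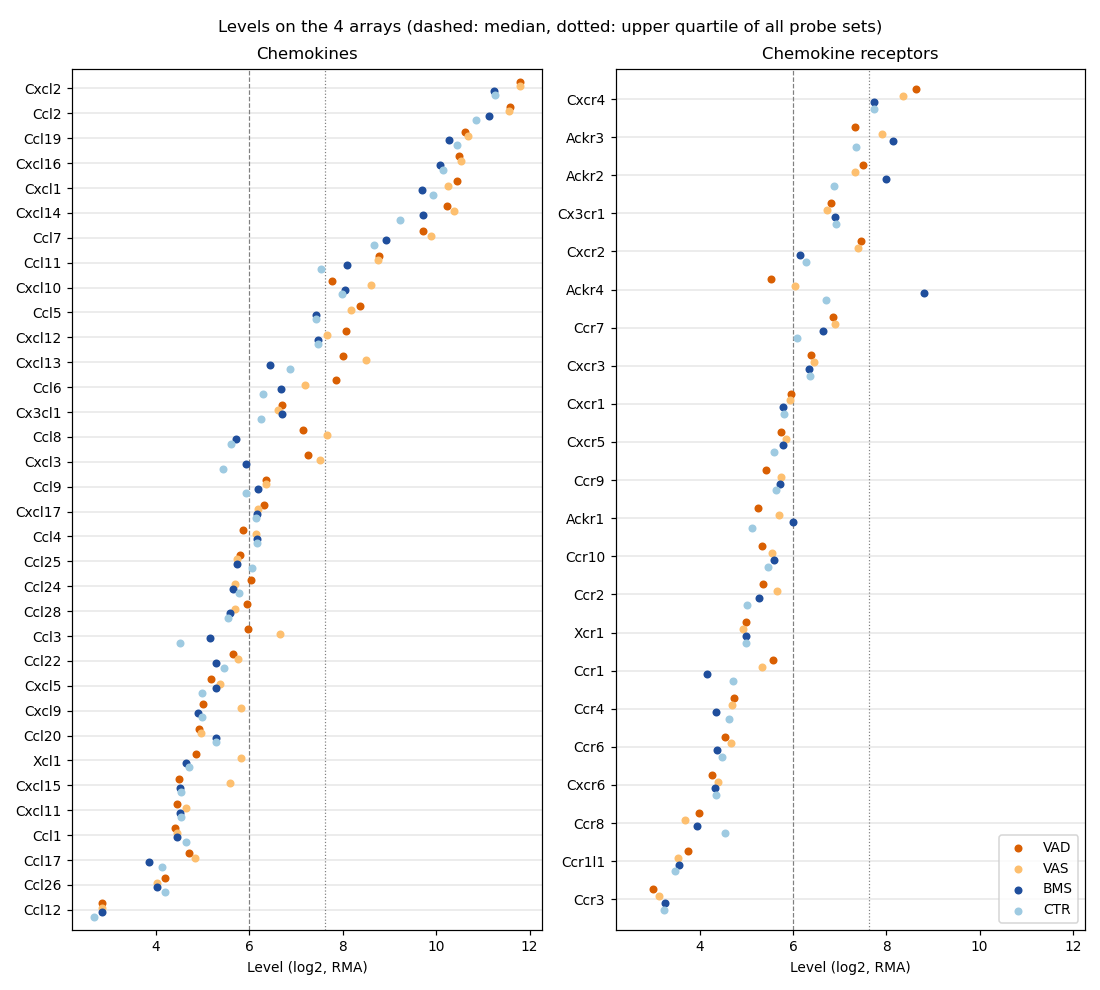
Levels of the 34 chemokines (left) and 22 receptors (right) on the log2 RMA scale, 1 point per array, ordered by mean level, with the median (dashed) and upper quartile (dotted) of all probe sets. Cxcl2, Ccl2, Ccl19, Cxcl16, Cxcl1, Cxcl14 and Ccl7 lie far to the right on all 4 arrays, and Ackr4 stands out on the BMS array at 8.80.

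Cxcl2 (Entrez gene 20310), a neutrophil attractant that acts through Cxcr2, was at the 99.6 percentile of mean levels, with 11.80 in VAD, against 11.80 in VAS, and 11.25 in BMS, against 11.25 in CTR. Ccl2 (Entrez gene 20296), the main attractant of monocytes through Ccr2, was at the 99.4 percentile, with 11.57 in VAD, against 11.56 in VAS, and 11.14 in BMS, against 10.86 in CTR. Both were bright on every array and nearly level within the diet experiment. Ccl19, a ligand of Ccr7 that guides dendritic cells and T cells, was at the 98.3 percentile, with 10.62 in VAD and 10.67 in VAS, and 10.27 in BMS and 10.45 in CTR. Cxcl16, a membrane-anchored ligand of Cxcr6, was at the 97.9 percentile, with 10.50 in VAD and 10.54 in VAS, and 10.09 in BMS and 10.15 in CTR. Cxcl1, another ligand of Cxcr2, was at the 97.2 percentile, with 10.44 in VAD and 10.26 in VAS, and 9.70 in BMS and 9.93 in CTR. For these 5 ligands no difference within either experiment reached 1.5-fold.

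Ligands at the other end were dim on every array. Ccl12, a mouse relative of Ccl2, was at the 4.75 percentile, with 2.83 in VAD, 2.84 in VAS, 2.84 in BMS and 2.66 in CTR. It lies in the same row of 6 neighbouring genes as Ccl2 (Ccl2, Ccl7, Ccl11, Ccl12, Ccl8 and Ccl1, in this order on chromosome 11), so members of 1 cluster were not alike in brightness. Ccl26, an eotaxin, stayed between 4.02 and 4.18, and Cxcl11, an interferon-induced ligand of Cxcr3, between 4.45 and 4.63. Ccl1, Ccl17 and Ccl20 were also dim, with percentiles of 22.7, 21.3 and 32.9.

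Among signalling receptors, Cxcr4, the receptor of Cxcl12, was the one above the upper quartile. It had 8.63 in VAD and 8.37 in VAS, and 7.73 in BMS and 7.74 in CTR. Its ligand Cxcl12, which keeps stem and immune cells in tissue niches, had 8.07 in VAD and 7.66 in VAS, and 7.47 in BMS and 7.46 in CTR. For both genes the BMS and CTR arrays were equal to within 0.02, and VAD stood above VAS by 0.26 for Cxcr4 and 0.40 for Cxcl12. Other receptors of the bright ligands were dimmer. Ccr2 was at the 36.7 percentile, Ccr7 at the 59.1, Cxcr2 at the 62.0 and Cxcr6 at the 20.8. Of 10 CC receptors, 9 lay below the median of all probe sets and 5 in the lowest quartile, with Ccr3, the eotaxin receptor of eosinophils, the dimmest at the 7.98 percentile.

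VAD against VAS addresses how chemokine genes differ on a diet short of vitamin A. At 2-fold, 0 of 56 were higher, where 0.22% of all named probe sets were, and 1 was lower, where 0.397% were. At 1.5-fold, 1 member was higher (1.79%, against 1.29% of all probe sets) and 5 were lower (8.93%, against 2.14%). The median over members was -0.04, against -0.01 over all named probe sets, and 45 of the 56 (80.4%) were under 1.5-fold in both experiments, against 93.3% of all named probe sets. With 1 array on each side, no test stands behind these counts. Set against CTR in place of VAS, 9 members were 2-fold higher in VAD (16.1%, against 0.876% of all) and 1, Ackr4, was lower, where 0.319% of all were. At 1.5-fold 16 were higher (28.6%, against 2.98% of all) and Ackr4 was again the 1 lower, where 1.62% of all were.

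**Figure D2:**
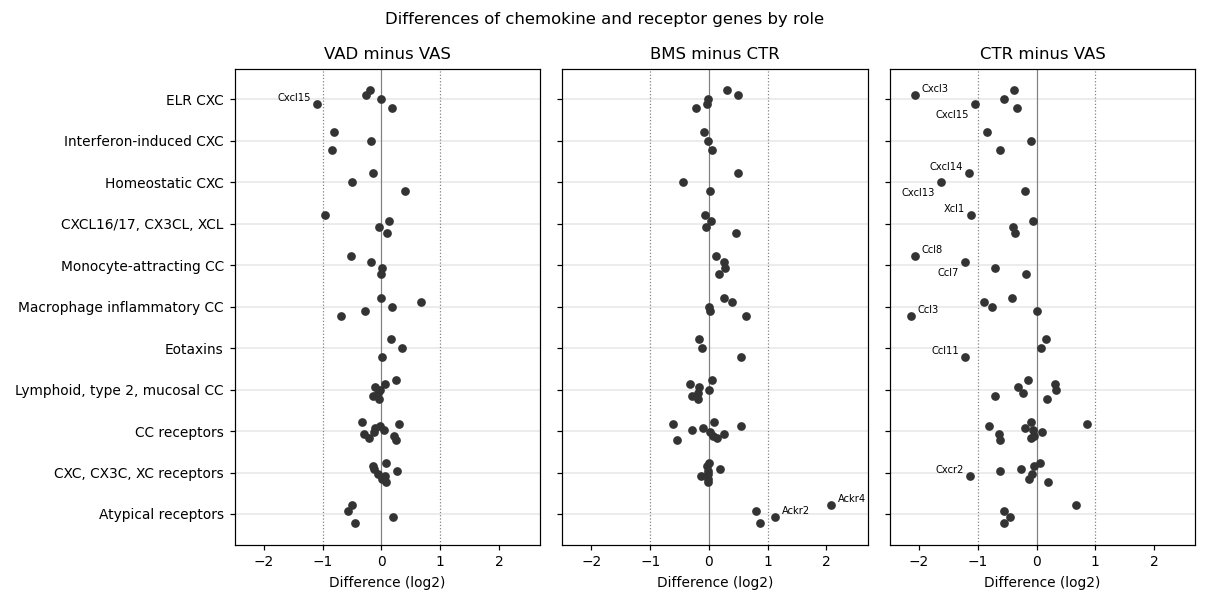
Differences in log2 for each of the 56 members (points), by role group, for VAD minus VAS (left), BMS minus CTR (middle) and CTR minus VAS (right), with dotted lines at 2-fold. The 4 atypical receptors lie between 0.80 and 2.08 in BMS minus CTR, and 10 members lie beyond 2-fold downward in CTR minus VAS.

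The member lower by 2-fold was Cxcl15 (Entrez gene 20309), a neutrophil attractant known in mouse as a product of lung epithelium. It had 4.50 in VAD, against 5.58 in VAS, and 4.50 in BMS, against 4.54 in CTR. The VAS array was thus the high one and the 3 others were level. Xcl1, a lymphocyte product that attracts cross-presenting dendritic cells, had 4.85 in VAD, against 5.81 in VAS, and 4.64 in BMS, against 4.70 in CTR. Its difference in VAD was -0.96, and again VAS alone stood high. Of 9 alveolar epithelial markers, 8 were lower in VAD than in VAS, where 51.4% of all named probe sets were. By 2-fold 2 of them were lower, where 0.397% of all were. In CTR 8 of the 9 were lower than in VAS, where 49.8% of all were. The part of alveolar cells in the Cxcl15 difference was not tested.

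The interferon-induced ligands of Cxcr3 were lower in VAD as well. Cxcl10 (Entrez gene 15945) had 7.77 in VAD, against 8.61 in VAS, and 8.05 in BMS, against 7.99 in CTR. Cxcl9 had 5.01 in VAD, against 5.82 in VAS, and 4.89 in BMS, against 4.98 in CTR. Cxcl11 differed by -0.18 in VAD and -0.01 in BMS, with a dim mean level at the 23.6 percentile. All 3 were lower in VAD than in VAS, while in BMS minus CTR they lay between -0.09 and 0.06. Against CTR in place of VAS, Cxcl10 differed by -0.22 in VAD and Cxcl9 by 0.04, and VAS was the highest of the 4 arrays for both. The receptor Cxcr3 lay between 6.34 and 6.45 on all arrays.

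Ccl3, a macrophage product that acts through Ccr1, had 5.96 in VAD, against 6.65 in VAS, and 5.15 in BMS, against 4.52 in CTR. It was thus 1.5-fold lower in VAD and 1.5-fold higher in BMS, each against its own control, and CTR was the lowest array. Ccl6, a macrophage product known from mouse, was the member 1.5-fold higher in VAD, with 7.85 in VAD, against 7.18 in VAS, and 6.68 in BMS, against 6.29 in CTR. It was higher within both experiments, by 0.67 and 0.39. Several ligands of other groups were under 1.5-fold apart in VAD minus VAS. Ccl11 (Entrez gene 20292), the eotaxin that airway smooth muscle is known to secrete, had 8.77 in VAD, against 8.75 in VAS. Cxcl13, the B cell attractant, differed by -0.50, Cxcl14 by -0.13 and Cxcl5 by -0.19 in VAD minus VAS. The 18 signalling receptors, Ccr and Cxcr genes with Cx3cr1 and Xcr1, lay between -0.33 and 0.30. Of the atypical receptors, Ackr1, Ackr3 and Ackr4 differed by -0.45, -0.57 and -0.50, and Ackr2 was higher by 0.19.

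The second comparison asked what the retinoic acid receptor antagonist did, BMS against CTR. The atypical receptors were the group that stood out. All 4 were at least 1.5-fold higher in BMS than in CTR, and all 4 had their highest value on the BMS array, as did 25.4% of all named probe sets. At 2-fold, 2 of 56 members were higher (3.57%, against 0.664% of all named probe sets) and 0 were lower, where 0.289% of all were. At 1.5-fold, 5 members were higher (8.93%, against 2.18%), the 4 atypical receptors and Ccl3, and 1 was lower (1.79%, against 1.74%). The median over all members was 0.01, against -0.00387 over all named probe sets, and over the atypical receptors it was 1.00.

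Ackr4 (Entrez gene 252837), which binds and removes Ccl19, Ccl21 and Ccl25, had 8.80 in BMS, against 6.72 in CTR, and 5.54 in VAD, against 6.04 in VAS. It was 4.24-fold higher in BMS than in CTR, and the BMS array stood far above the 3 others. Both arrays of the antagonist experiment were above both arrays of the diet experiment, and within the diet experiment VAD was the lower one. Ackr2 (Entrez gene 59289), which scavenges inflammatory CC chemokines, had 8.004 in BMS, against 6.87 in CTR, and 7.51 in VAD, against 7.32 in VAS. It was 2.19-fold higher in BMS and 1.14-fold higher in VAD, each over its own control.

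Ackr3 (Entrez gene 12778), which takes up Cxcl12 and Cxcl11, had 8.15 in BMS, against 7.35 in CTR, and 7.33 in VAD, against 7.91 in VAS. Ackr1 (Entrez gene 13349), a carrier of many CC and CXC chemokines on red cells and venular endothelium, had 5.99 in BMS, against 5.13 in CTR, and 5.25 in VAD, against 5.69 in VAS. For both genes BMS was the highest array, with VAS next and VAD and CTR close together below. Set against VAS in place of CTR, the BMS array was higher by 2.76 for Ackr4, 0.68 for Ackr2, 0.30 for Ackr1 and 0.25 for Ackr3. At 1.5-fold, Ackr2 and Ackr4 were the 2 of 56 members higher in BMS than in VAS, where 2.36% of all named probe sets were, and at 2-fold Ackr4 was the 1, where 0.401% were. In the other direction 9 members were 2-fold lower in BMS than in VAS (16.1%, against 1.09% of all).

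**Figure D3:**
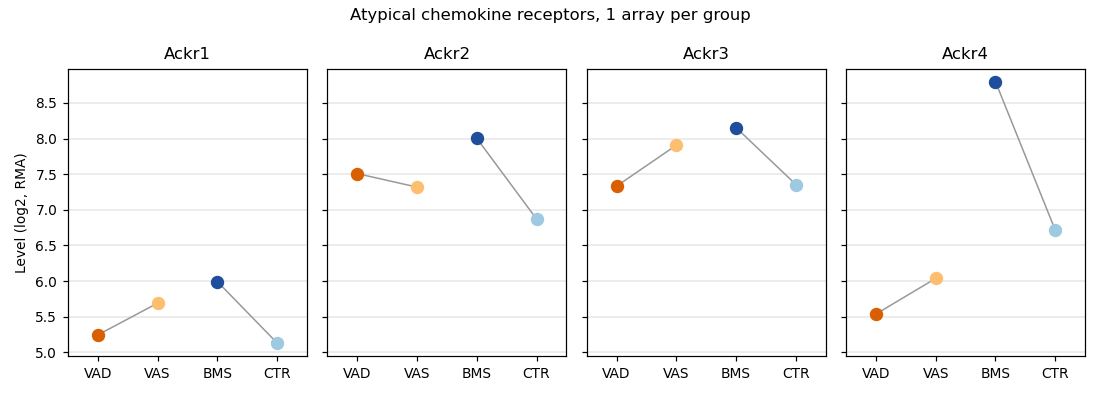
Levels (log2, RMA) of the 4 atypical chemokine receptors on the VAD, VAS, BMS and CTR arrays, 1 point per array, with lines joining the 2 arrays of an experiment. In every panel the BMS point is the highest, and Ackr4 is at 8.80 in BMS, against 6.72 in CTR.

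Ligands of these receptors differed by less than 1.5-fold in BMS minus CTR, apart from Ccl3. Ccl19 differed by -0.18, Ccl25 by -0.32, Cxcl12 by 0.01 and Cxcl11 by -0.01. Inflammatory CC ligands that Ackr2 can bind differed by 0.28 for Ccl2, 0.25 for Ccl7, 0.11 for Ccl8 and 0.01 for Ccl5. Of the 34 ligands, Ccl3 was the one at least 1.5-fold higher, and none was 1.5-fold lower. The 4 monocyte-attracting and the 5 macrophage inflammatory ligands were all above 0, where 48.9% of all named probe sets were, with medians of 0.21 and 0.25, although Ccl5 and Ccl4 were level at 0.01 each. Ccl11 had 8.09 in BMS, against 7.54 in CTR, a difference of 0.55, and Cxcl14, a ligand of uncertain receptor that is widespread in epithelium and fibroblasts, had 9.71 in BMS, against 9.22 in CTR. Both were on the BMS array still below their VAS levels, with BMS minus VAS at -0.66 for each.

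The one member 1.5-fold lower in BMS was Ccr8, a receptor of skin-homing and regulatory T cells, with 3.94 in BMS, against 4.55 in CTR, and 3.98 in VAD, against 3.68 in VAS. Its mean level was at the 17.1 percentile. Ccr1, the Ccl3 receptor of monocytes and neutrophils, had 4.16 in BMS, against 4.71 in CTR, and Ccr7 had 6.64 in BMS, against 6.09 in CTR. The 8 CXC, CX3C and XC receptors stayed between -0.13 and 0.19.

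Markers of connective tissue cells were higher on the same array. Of all named probe sets, 48.9% were higher in BMS than in CTR, 2.18% by 1.5-fold and 0.664% by 2-fold. Of 12 fibroblast markers, all were higher in BMS than in CTR, 5 of them by 2-fold. Their summed level (log2 of the sum of linear values) was 14.67 in BMS, against 14.25 in CTR, and 14.35 in VAD, against 14.42 in VAS. Set against VAS, the fibroblast markers had a median of 0.39 in BMS. The fibroblast receptor gene Pdgfra had 9.64 in BMS, against 8.57 in CTR. Of 8 endothelial markers, 6 were higher and 2 lower, with a median of 0.28. Tek, an angiopoietin receptor, was the 1 past 1.5-fold, with 8.14 in BMS, against 6.72 in CTR. The summed endothelial level was 10.62 in BMS, against 10.21 in CTR. Of 6 lymphatic endothelial markers, 3 were higher in BMS than in CTR and 3 lower, with a median of 0.017. The lowest fibroblast marker, Scara5, was at 6.53 in BMS, against 5.09 in CTR, below the median of all probe sets in CTR. The part of these cells in the atypical receptor differences was not tested.

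The third comparison set the controls against each other, CTR against VAS, both on sufficient diets. More members were past 2-fold here than in VAD against VAS or BMS against CTR. At 2-fold, 10 of 56 members were lower in CTR (17.9%, against 1.16% of all named probe sets) and 0 were higher, where 0.311% of all were. At 1.5-fold, 20 were lower (35.7%, against 4.33%) and 2 were higher (3.57%, against 2.16%). The median over members was -0.35, against 0.0 over all named probe sets. Below 0 lay 28 of 34 ligands (82.4%) and 17 of 22 receptors (77.3%), against 49.8% of all named probe sets. CTR and VAS came from separate experiments and separate mice, and CTR alone had powdered diet and corn oil, so these cannot be told apart.

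**Figure D4:**
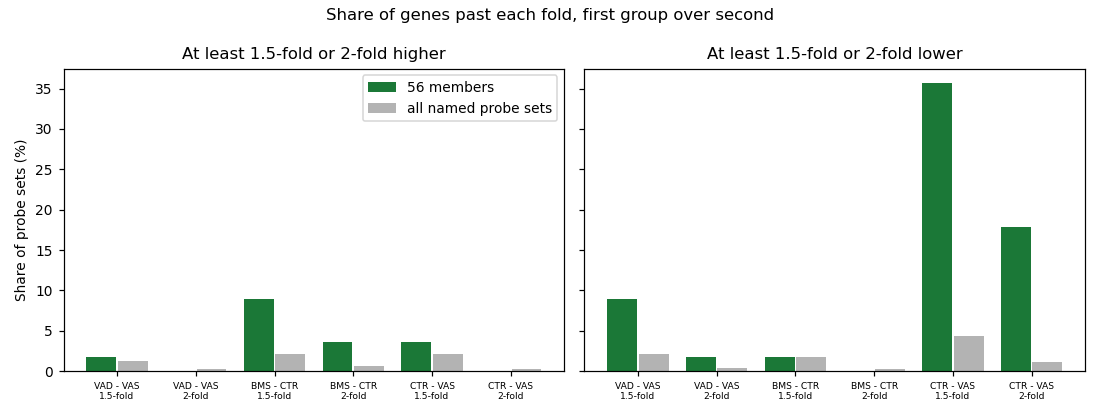
Share of the 56 members (green) and of all 23185 named probe sets (grey) that were at least 1.5-fold or 2-fold higher (left) or lower (right) in the first group of each pair. For CTR minus VAS downward the bars reach 35.7% and 17.9% of members, against 4.33% and 1.16% of all.

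Ccl3 was 4.37-fold lower in CTR, with 4.52 in CTR, against 6.65 in VAS. Cxcl3, a Cxcr2 ligand, had 5.44 in CTR, against 7.50 in VAS, with 7.25 in VAD and 5.93 in BMS. Ccl8, a monocyte attractant, had 5.61 in CTR, against 7.67 in VAS, with 7.15 in VAD and 5.72 in BMS. For Cxcl3 and Ccl8 the 2 diet arrays were both high and the 2 antagonist experiment arrays both low. Cxcl13 had 6.88 in CTR, against 8.50 in VAS, with 7.999 in VAD and 6.43 in BMS. The neutrophil receptor Cxcr2 had 6.28 in CTR, against 7.40 in VAS, with 7.46 in VAD and 6.14 in BMS. Ccl11, Ccl7 and Cxcl14 differed by -1.22, -1.22 and -1.15, and the dim Xcl1 and Cxcl15 by -1.11 and -1.05. Ccl7, a monocyte attractant, had 8.67 in CTR, against 9.89 in VAS, with 9.71 in VAD and 8.92 in BMS. Cxcl14 had 9.22 in CTR, against 10.37 in VAS, with 10.24 in VAD and 9.71 in BMS, so the diet arrays were again the high ones.

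Other members were between 1.5-fold and 2-fold lower in CTR. Ccl5, a T cell and eosinophil attractant, had 7.42 in CTR, against 8.18 in VAS, with 8.36 in VAD and 7.42 in BMS. Ccl17, a ligand of Ccr4, had 4.13 in CTR, against 4.84 in VAS, with 4.70 in VAD and 3.84 in BMS. Ccr2 had 5.01 in CTR, against 5.65 in VAS, with 5.35 in VAD and 5.27 in BMS. In all of these the VAD and VAS arrays were above both others. Ccr1 had 4.71 in CTR, against 5.33 in VAS, with 5.58 in VAD and 4.16 in BMS. Ccr7 had 6.09 in CTR, against 6.89 in VAS, with 6.86 in VAD and 6.64 in BMS. The 2 members 1.5-fold higher in CTR than in VAS were Ccr8, by 0.86, and Ackr4, by 0.68.

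This division by experiment held for much of the family. Both diet experiment arrays were above both antagonist experiment arrays for 31 of 56 members (55.4%), against 19.8% of all named probe sets, and below them for 5 of 56 (8.93%), against 21.2%. The 31 include 22 of 34 ligands and 9 of 22 receptors. All of Cxcl2, Ccl2, Ccl19, Cxcl16, Cxcl1, Cxcl14 and Ccl7, the 7 brightest, were among them. The 5 that ran the other way were Ackr4, Ccl20, Ccl4, Ccr3 and Cx3cr1. Neighbouring genes were not all alike. In the row Ccl5, Ccl9, Ccl6, Ccl3 and Ccl4 on chromosome 11, CTR minus VAS ran from -2.13 for Ccl3 to 0.01 for Ccl4, its direct neighbour.

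Markers of several cell types were divided in the same way, and of these lists neutrophil markers had the lowest median CTR minus VAS, -1.13. All 7 neutrophil markers were higher on both diet arrays than on both antagonist experiment arrays, with a summed level of 10.33 in VAD and 10.22 in VAS, and of 8.47 in BMS and 8.38 in CTR. S100a9, an abundant neutrophil calcium-binding protein, had 6.47 in CTR, against 9.21 in VAS. Of 13 macrophage and monocyte markers, 11 showed the same division, with summed levels of 11.43 in VAD, 11.31 in VAS, 10.82 in BMS and 10.82 in CTR. The division was not limited to leukocytes. It was shown by 5 of 5 mesothelial, 5 of 6 dendritic cell, 4 of 6 lymphatic endothelial, 4 of 8 smooth muscle, 3 of 9 alveolar, 2 of 8 airway epithelial, 3 of 11 lymphocyte and 1 of 12 fibroblast markers. None of 8 endothelial or 7 pericyte markers showed it. The opposite division, both diet arrays below both others, was found for 21.2% of all named probe sets. It was shown by 4 of 7 pericyte (57.1%), 2 of 12 fibroblast and 1 of 6 lymphatic endothelial markers. All 7 pericyte markers were higher in CTR than in VAS (median 0.36), where 49.9% of all were. Of the 12 fibroblast markers 4 were 2-fold lower in CTR than in VAS, where 1.16% of all named probe sets were. These 4 were Pi16 (-2.14), Clec3b (-1.49), Cd34 (-1.37) and Scara5 (-1.01). The smooth muscle markers had a median CTR minus VAS of 0.0035 and none was 1.5-fold apart. The defining neutrophil marker Ly6g lay between 3.77 and 4.20. The part of these cells in the chemokine differences was not tested.

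**Figure D5:**
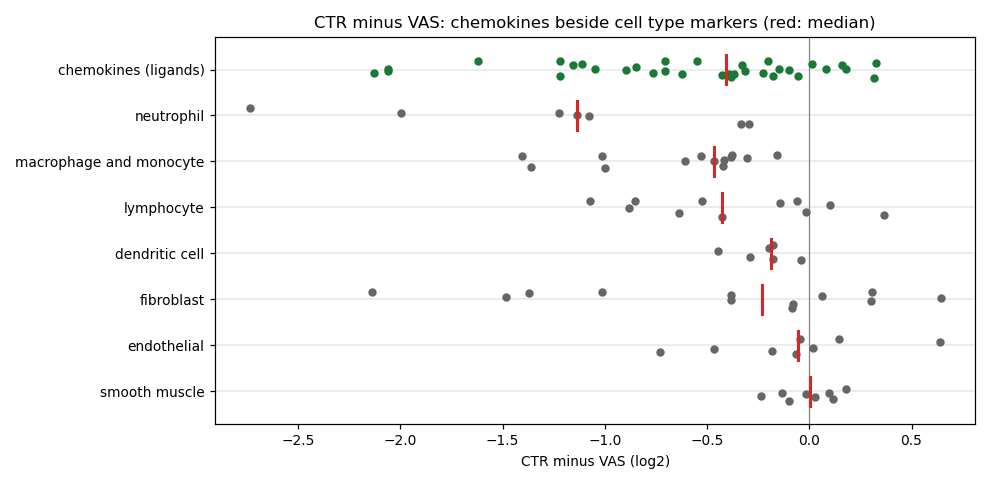
CTR minus VAS (log2) for the 34 chemokine ligands (green) and for markers of 7 cell types (grey), 1 point per gene, with medians in red. The ligand median is -0.41, the neutrophil marker median -1.13, the macrophage median -0.47 and the smooth muscle median 0.0035. The medians are -0.43 for lymphocyte, -0.19 for dendritic cell, -0.23 for fibroblast and -0.05 for endothelial markers. Lists not plotted have medians of -0.43 (lymphatic endothelial), -0.34 (mesothelial), -0.23 (alveolar), -0.11 (airway epithelial) and 0.36 (pericyte).

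Among 38 measured genes of chemokine receptor signalling (47 listed), 1 was 1.5-fold lower and none higher in VAD than in VAS, Grk3, a receptor kinase, with 5.72 in VAD, against 6.38 in VAS. That is 1 of 38, where 2.14% of all named probe sets were lower. In BMS none was 1.5-fold apart from CTR. In CTR against VAS 4 were 1.5-fold lower and none higher, where 4.33% and 2.16% of all were. These 4 included the leukocyte signalling genes Rac2 and Fgr, which differed by -0.76 and -0.77. Among 35 measured inducers of chemokine transcription (38 listed), such as NF-kappa B, interferon and interleukin 4 pathway genes, 1 was 1.5-fold higher in VAD, where 1.29% of all were. This was Il4ra, the interleukin 4 receptor chain, with 10.04 in VAD, against 9.40 in VAS. None of them was 1.5-fold apart in BMS. The medians were 0.12 in VAD and -0.12 in BMS. In CTR against VAS 2 were 1.5-fold higher and 2 lower, where 2.16% and 4.33% of all were. The largest of these was Il1b, the gene of interleukin 1 beta, with 7.06 in CTR, against 8.90 in VAS, 9.46 in VAD and 7.38 in BMS.

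Among 22 measured genes that present or cleave chemokines (23 listed), 5 were 1.5-fold higher in BMS and none lower, where 2.18% and 1.74% of all named probe sets were. In VAD 1 was higher and 2 were lower at this fold, where 1.29% and 2.14% of all were. In CTR against VAS none was higher and 4 were lower, where 2.16% and 4.33% of all were. Dpp4, a surface protease that trims and inactivates Cxcl12, Cxcl10 and other chemokines, had 8.18 in BMS, against 5.98 in CTR, and 5.31 in VAD, against 7.00 in VAS. It was highest in BMS and lowest in VAD, the same order at both ends as Ackr4. Mmp3, a metalloproteinase that cleaves Ccl2 and related ligands, was higher in both, with 10.37 in VAD, against 9.28 in VAS, and 9.64 in BMS, against 9.01 in CTR. Mmp12, the macrophage elastase, had 6.74 in VAD, against 7.87 in VAS, and 6.54 in BMS, against 5.88 in CTR. Hs3st1, a heparan sulfate sulfotransferase, had 7.04 in BMS, against 6.20 in CTR.

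Of 8 chemokine-related genes that the symbol rule leaves out, all 8 were higher in BMS than in CTR, 2 of them by 1.5-fold. In VAD 7 were lower than in VAS, 2 of them by 1.5-fold. Of all named probe sets, 48.9% were higher in BMS than in CTR, and 2.18% were so by 1.5-fold. In VAD 51.4% of them were lower than in VAS, and 2.14% were so by 1.5-fold. Ppbp, a platelet CXC chemokine, had 5.32 in BMS, against 4.56 in CTR, and 4.60 in VAD, against 5.24 in VAS. Pf4, the other platelet chemokine, had 7.16 in VAD, against 7.77 in VAS, and 6.41 in BMS, against 5.88 in CTR. Cd74, a receptor for the cytokine Mif and the invariant chain of class II antigen presentation, had 9.16 in BMS, against 8.53 in CTR, and 9.88 in VAD, against 10.37 in VAS.

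The one fit with over 1 array a side took VAD and BMS together against VAS and CTR, with the experiment as a block, in limma (lmFit and eBayes) over all 23185 named probe sets. It called 0 of 56 members and 0% of all genes at an adjusted p under 0.05 (Benjamini-Hochberg). At an unadjusted p under 0.05 it held 2 of 56 members (3.57%), against 4.05% of all genes. With the filter on the mean it held 3 of 27 members (11.1%), against 3.69% of all genes. The 2 were Cxcl13, with an effect of -0.47 ± 0.11 (SE) and a limma adjusted p of 0.98, and Ccl6, with 0.53 ± 0.13 and an adjusted p of 0.98. Cxcl13 was lower in both experiments, with -0.50 in VAD and -0.45 in BMS, and Ccl6 was higher in both. For Ackr2 the effect was 0.66 ± 0.26 and for Ackr4 0.79 ± 0.64, each with a limma adjusted p of 0.98. With 1 residual degree of freedom, the absence of calls does not show that nothing differed.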

How the data were processed

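RNA of sorted airway smooth muscle cells was measured on 4 expression arrays, 1 each for VAD, VAS, BMS and CTR. Per the submitters' processing notes, the authors made the deposited log2 values with RMA (background correction, normalization between arrays, probe summary) in affy 1.36.1 and R 2.15.1. Such normalization hides a shift shared by most genes. The sources used here do not say whether other arrays were normalized with these 4. Scanner intensities were not used, so it is unknown which probe sets were above background. Precision is limited by there being 1 array a group.

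Probe sets were named from GEO's platform annotation by Entrez number (23185 named, 2021 unnamed), and all 56 members matched RefSeq's gene table of GRCm38.p6. No filter on low values was applied, because a filter on the highest value keeps dim genes that differ. Of the members, 28 had a highest value and 27 a mean at or over the median of all named values, 6.05. Differences of log2 values were counted at 2-fold and 1.5-fold beside the same counts over all named probe sets. Joint differences were fitted with limma 3.58.1 in R 4.3.3, with eBayes and Benjamini-Hochberg adjustment. The other tools were Python 3.11.15, numpy 2.4.6, pandas 2.3.3 and matplotlib 3.10.9. The steps were tested on simulated data. The members, gene lists, marker lists and tests were chosen with earlier results of these data known. The rule gave values on all 4 arrays for members 1.5-fold apart in a comparison or above the upper quartile of mean levels (29 members), and of each pathway list for up to 4 genes 1.5-fold apart in VAD or BMS. Rac2, Fgr, Il1b, Ccl12, Ccl26, Cxcl11 and others outside that rule, and the motifs, were chosen after values were seen. Alternatives were other filters, folds, controls and normalizations, and other limma settings. Positions are not used for the probe sets, and promoters come from RefSeq's table.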

Additional observations from a re-analysis of the deposited data

How the results depend on the processing

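Quantile normalization again and cyclic loess moved each of the 87 named differences by under 0.1, and all 13 of the named 2-fold differences stayed past 2-fold in the same direction under both. The choice of control changed most. With CTR in place of VAS, 9 members were 2-fold higher in VAD and the median was 0.19, and with the mean of both controls 1 was higher, 0 were lower and the median was 0.079. With VAS in place of CTR, 1 member was 2-fold higher in BMS (Ackr4), 9 were lower and the median was -0.18, and with the mean of both controls 1 was higher and 1 lower. Ackr2 and Cxcl15 were then no longer past 2-fold. At 1.5-fold, 1 was higher and 5 lower in VAD, 5 higher and 1 lower in BMS, and 2 higher and 20 lower in CTR against VAS. At 3-fold, 0 were lower in VAD, 1 was higher in BMS and 4 were lower in CTR. The same shares over all named probe sets were not counted at 3-fold or for the mean of both controls. Requiring a highest or a mean value at or over the median of all values removed the dim Cxcl15, leaving 0 lower in VAD, and took the CTR minus VAS median to -0.59 and -0.55. The joint limma fit called 0 genes and 0 members under every setting run, including no block, trend with robust, the filter on the mean and leaving out each array in turn (0 to 0). At an unadjusted p under 0.05 the fit with no block held 1.79% of members, against 2.77% of all genes. The fit with trend and robust held 3.57% of members, against 4.01% of all genes. The labels give no replicate numbers, and the experiment block of the joint fit is the one pairing of arrays used. The unmeasured spread between mice and the unknown background limit what dim members such as Ccr8, Xcl1 and Cxcl15 can show.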
